A study of Mus musculus with 2 samples.

Results

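The cells described here are Pax7-positive, Myog-negative muscle progenitors of mouse dorsolateral skin at stage E13.5. They were selected on measured transcripts. A barcode counted as a progenitor when it had at least 1 UMI (a unique molecular identifier, 1 counted RNA molecule) of Pax7 and none of Myog, Cdh5, Ptprc or Sox10. It also needed no more than 5 UMIs of Krt5, Krt14 and Krt15 together and at least 1 UMI of Myf5, Myod1, Msc or Des. Barcodes had to show 1000 genes, at most 10% mitochondrial UMIs and under 5% hemoglobin UMIs, which kept 8480 barcodes of the library titled mutant and 12028 of the library titled control. The rule found 564 progenitors among these 20508 cells, 201 of the mutant and 363 of the control library.

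The study bred Axin2CreER, an inducible recombinase made where the Wnt-responsive gene Axin2 is active, to Rosa-lox-STOP-lox-SmoM2YFP. Once recombined, that allele makes SmoM2, a Smoothened protein that signals without Hedgehog ligand and carries a yellow fluorescent tag, so the pathway is switched on in recombined cells and their descendants. The mutant title reads dermal SmoM2YFP mutant, and the control title names the SmoM2YFP allele alone. Flank skin of littermates was dissociated with trypsin, 2 to 3 embryos of a group were pooled after genotyping, and DAPI-stained suspensions were sorted before 10x Genomics 3′ libraries were made. The dose and time of any inducer are not given in the sources used here. Each group had 1 library, so there was no replicate check and no test, and every interval below is a 95% interval that covers counting error only. The genotype field of each library names the opposite group from its title. Groups here follow the titles, and cells are called those of mutant or control skin accordingly. With the titles went the Hedgehog targets: in dermis-marked cells Ptch1, the Hedgehog receptor gene, was at 261 CPM (counts per 1000000 UMIs of the summed cells) in the mutant library and 5.61 CPM in the control library.

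Pax7 is a paired-box transcription factor of the embryonic cells that build skeletal muscle and later supply its stem cells. These cells express Myf5 and Myod1 as they commit, and then Myog, at which point they leave the cell cycle, fuse and assemble sarcomeres. Signalling through Notch receptors keeps progenitors undifferentiated, with ligands such as Dll1 presented by their differentiating neighbours. Hedgehog ligands help to induce the early myogenic program in the somite, and Ptch1, Gli1 and Hhip are the textbook readout of a cell's response to them.

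Mutant progenitors held fewer UMIs than control progenitors, with a median of 9548 UMIs per cell in mutant skin and 15565 in control skin. UMIs per cell are called depth here, and the source of this gap was not tested. The gap was much wider than over all kept cells, with medians of 6670 and 7591 UMIs in mutant and control skin. It held for the Myog-positive muscle cells as well, at 8614.5 and 14773 UMIs. The libraries shared 38 kept barcodes, none of them a progenitor. Doublets were kept in the main values, and Scrublet called 11 of the 201 mutant progenitors (5.47%) and 41 of the 363 control progenitors (11.3%) doublets. Summed over 11 dermal markers, the median was 6 UMIs per mutant progenitor and 10 per control progenitor, and the 90th percentiles were 16 and 55.6. Keratinocyte markers were at 0 in 98.5% of mutant and 98.1% of control progenitors.

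Genes that the rule did not use marked the cells as muscle. Cdh15, the muscle cadherin, was at 77.5 CPM in mutant and 61.7 CPM in control progenitors, against 1.13 and 1.62 CPM in dermis-marked cells of mutant and control skin. The receptor gene Fgfr4 was at 62.5 CPM in mutant and 58.0 CPM in control progenitors, and the homeobox gene Lbx1 at 33.0 and 48.9 CPM, while all 4 dermal values of these genes were under 1 CPM. These genes do not part progenitors from Myog-positive cells, where Cdh15 was at 149 and 125 CPM and Fgfr4 at 56.0 and 47.0 CPM in mutant and control skin. Pax3, which marks the earlier wave of embryonic progenitors and their migrating limb-bound members, was almost undetected, with 2 UMIs in all mutant progenitors together and 7 in all control progenitors.

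Within the rule, most progenitors rested on few Pax7 molecules: 119 of 201 mutant cells (59.2%) and 175 of 363 control cells (48.2%) had exactly 1 Pax7 UMI. Msc, a bHLH repressor of the muscle lineage, was detected in 91.0% of mutant and 96.4% of control progenitors, Des in 81.6% and 84.8%, Myf5 in 46.3% and 53.4%, and Myod1 in 43.3% and 55.6%. Cells just inside and just outside the rule are given by their Actc1, a muscle actin. Progenitors with exactly 1 Pax7 UMI held Actc1 at 1154.5 CPM in mutant skin and 1120.7 CPM in control skin. Cells turned away for exactly 1 Myog UMI, 22 mutant and 30 control, held it at 1503.4 and 1855.5 CPM. Cells with Pax7 but no muscle gene numbered 1 in mutant and 8 in control skin.

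Because the rule asks for single molecules, a shallow cell is more easily missed. As counted, progenitors made up 2.37% (2.06 to 2.72) of kept mutant cells and 3.02% (2.72 to 3.34) of kept control cells. When every cell was thinned to 3000 UMIs and the rule applied again, they made up 1.12% (90 of 8039) in mutant skin and 1.17% (137 of 11693) in control skin, a difference of -0.052 percentage points (-0.356 to 0.264). The gap between the libraries in the share of all cells was thus not detectable at equal depth. Of the muscle cells, progenitors and Myog-positive cells together, progenitors were 22.6% in mutant skin and 28.8% in control skin after thinning. That difference of -6.23 points had an interval of -12.1 to -0.243, which reached past 0 when cells were thinned to 2000 or 5000 UMIs instead.

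Myog-positive cells, 386 in mutant skin and 489 in control skin, served as the comparison within muscle. They had at least 1 Myog UMI, passed the same exclusions, and held a Pax7 UMI in 66 mutant and 88 control cells. Since Pax7 and Myog chose the cells, the contrast is a description, and nothing is read from its counts. Of 5173 genes at 20 CPM or more in 1 of the groups of each library, 59 (1.14%) were at least 2-fold higher in progenitors in both libraries and 161 (3.11%) at least 2-fold lower, with 5 CPM added to each value. The median over all these genes was a log2 ratio of 0.13 in mutant skin and 0.12 in control skin, and list medians are to be read against that shift.

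The gene with the widest margin in progenitors was Chodl, which encodes the membrane lectin chondrolectin (chr16:78930948-78951733, plus strand, GRCm38). It was at 57.7 CPM in progenitors and 2.79 CPM in Myog-positive cells of mutant skin, a 20.7-fold ratio (10.9 to 44.2). In control skin it was at 40.2 CPM in progenitors and 4.49 CPM in Myog-positive cells, an 8.95-fold ratio (6.23 to 13.2). Egfr, the receptor of epidermal growth factor, was 6.52-fold higher (3.39 to 13.53) in progenitors of mutant skin and 5.08-fold higher (3.59 to 7.35) in those of control skin. The hepatocyte growth factor receptor Met, which guides migrating muscle precursors, was at 28.6 CPM in progenitors and 6.97 CPM in Myog-positive cells of mutant skin, and at 28.3 and 15.2 CPM in those of control skin. It missed 2-fold in control skin. Nog, a secreted antagonist of BMP, was 3.64-fold higher (2.60 to 5.15) in mutant and 5.07-fold higher (3.77 to 6.92) in control progenitors. The other 9 of the 12 leading genes were Gm266, Fap (a membrane-bound peptidase), Dlc1 (a GTPase-activating protein), Fibin, Vcan (the matrix proteoglycan versican), Hey1, Notch3, Fblim1 and Chst2, between 3.31-fold and 7.05-fold higher across both libraries.

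Notch components were divided between the cell states. Of 10 measured Notch genes, 3 were higher in progenitors, 2 lower and 5 did not pass 2-fold in both libraries, with a list median of 0.58 in mutant skin and 0.58 in control skin. Notch3, a receptor, was at 58.6 CPM in progenitors and 13.7 CPM in Myog-positive cells of mutant skin, and at 43.9 and 12.4 CPM in those of control skin. Hey1, a transcriptional target of Notch, was 3.90-fold higher in mutant progenitors and 3.89-fold higher in control progenitors, and Dtx4 followed at 3.53-fold and 3.44-fold. The ligand gene Dll1 lay on the other side, at 4.84 CPM in progenitors and 24.8 CPM in Myog-positive cells of mutant skin and at 6.75 and 24.4 CPM in those of control skin. Hes6, known to promote myogenic differentiation, was lower in progenitors by 3.15-fold in mutant and 2.82-fold in control skin. Heyl, another Notch target, was 2.23-fold and 2.03-fold higher before 5 CPM was added, and missed the threshold after it. Notch3, Hey1 and Dtx4 were thus higher on the Pax7 side, and Dll1 and Hes6 on the Myog side, in both libraries.

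Matrix genes also lay on the progenitor side, with 7 of 23 measured members higher, none lower and a list median of 0.93 in mutant and 0.72 in control skin. They were Vcan, Postn, Col4a1, Col4a2, Col5a1, Fn1 and Lamb1. Col4a1, a basement membrane collagen, was at 296 CPM in progenitors and 102 CPM in Myog-positive cells of mutant skin, and at 198 and 78.9 CPM in those of control skin. Dermal marker RNA moved with these genes, at a sum of 1074 CPM in progenitors and 540 CPM in Myog-positive cells of mutant skin and at 1248 and 876 CPM in those of control skin. Its part in the matrix difference was not tested. Chodl, Hey1 and Nog were near 0 in dermis-marked cells, at 0.780 to 4.61 CPM. Among growth regulators Pdgfa, a secreted ligand, was 2.41-fold higher in mutant and 2.11-fold higher in control progenitors, and Ccnd2, a D cyclin, 2.36-fold and 2.16-fold higher.

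**Figure D1:**
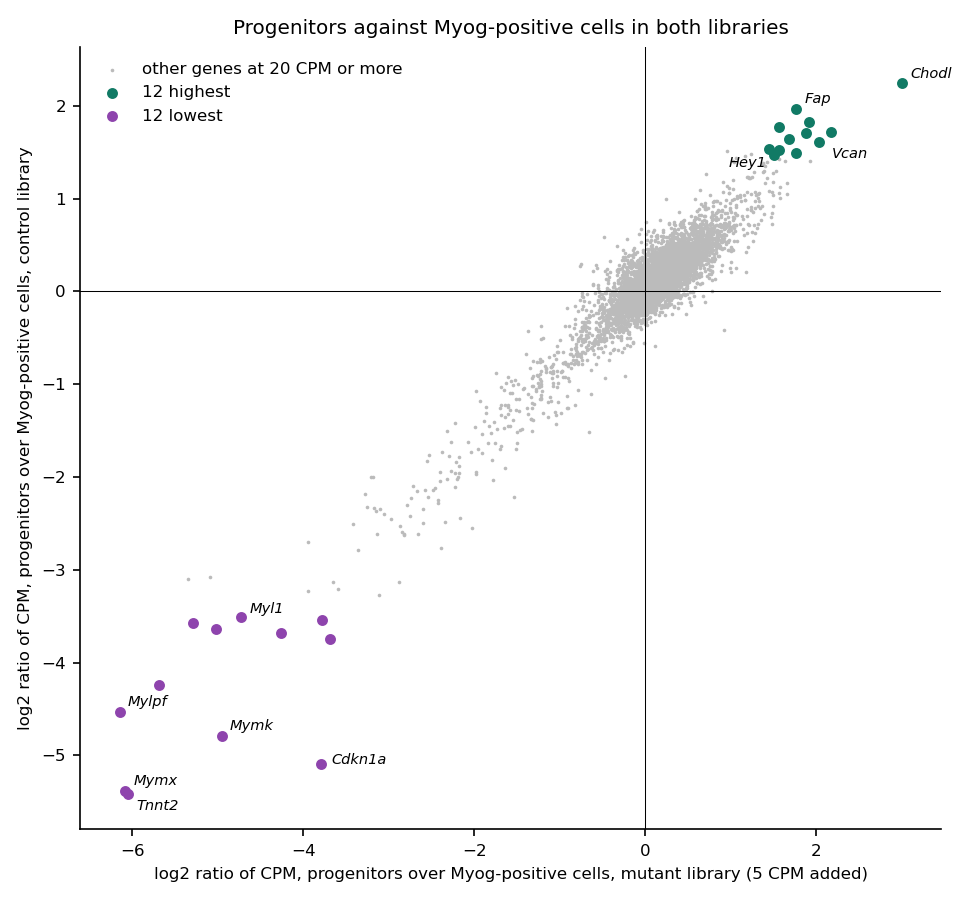
Log2 ratios of progenitors over Myog-positive cells, with 5 CPM added, in mutant skin (x axis) and control skin (y axis). Each point is a gene at 20 CPM or more. Green points are the 12 genes highest in progenitors in both libraries, which lie between 1.46 and 3.01 in mutant skin, and purple points the 12 lowest, from Tnnt2, Mymx and Mylpf at the far end to Sept4 and S100a16.

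Genes of the differentiated state were far lower in progenitors. All but 4 of the 22 measured contractile genes were at least 2-fold lower in both libraries and none was higher, and the list median was a log2 ratio of -3.15 in mutant skin and -2.38 in control skin. Tnnt2, a troponin of embryonic skeletal muscle as well as heart, was at 8.24 CPM in progenitors and 873 CPM in Myog-positive cells of mutant skin, and at 9.28 and 602 CPM in those of control skin. Actc1, the cardiac actin that fetal skeletal muscle also uses, had a high level in progenitors already, 1051 CPM in mutant and 1047.5 CPM in control skin, 4.55-fold and 3.90-fold below the Myog-positive cells. Of 9 measured fusion and synapse genes, 7 were lower in progenitors, with list medians of -2.32 in mutant and -2.02 in control skin. Mymk, the fusion protein myomaker, had 1 UMI in all mutant progenitors and 3 in all control progenitors, while Myog-positive cells held it at 165 CPM in mutant and 148 CPM in control skin. Its partner Mymx had 2 and 13 UMIs in mutant and control progenitors. Chrna1, a subunit of the acetylcholine receptor, was at 1.45 CPM in mutant progenitors, against 119 CPM in Myog-positive cells of that library, and at 3.54 CPM in control progenitors, against 105 CPM.

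Promoter windows of 4 of the 12 lowest genes are shown, and all of these windows hold the motif searched for. Windows without it, such as those of Myh3 and Tnnc1 and another window of Tnnt2, are not shown. Each window runs from 250 bases before to 50 after a RefSeq transcript start (GRCm38.p6). It was searched for CAGCTG, a palindromic E-box that myogenic bHLH factors can bind. Windows were found for 9 of the 12 lowest genes, and 7 of the 9 genes held the motif in at least 1 window, which was 8 of 13 windows (61.5%). Over all 32851 mouse windows 16.3% held it. For the 12 highest genes it was in 2 of 9 windows (22.2%), those of 2 of the 8 matched genes. Capitals mark the motif in the windows of Chrna1 at chr2:73580289-73580588 (minus strand), Tnnt2 at chr1:135836084-135836383 (plus strand), Myl1 at chr1:66945007-66945306 (minus strand) and Mylpf at chr7:127211358-127211657 (plus strand), each written 5′ to 3′ along the strand of the gene.
Chrna1: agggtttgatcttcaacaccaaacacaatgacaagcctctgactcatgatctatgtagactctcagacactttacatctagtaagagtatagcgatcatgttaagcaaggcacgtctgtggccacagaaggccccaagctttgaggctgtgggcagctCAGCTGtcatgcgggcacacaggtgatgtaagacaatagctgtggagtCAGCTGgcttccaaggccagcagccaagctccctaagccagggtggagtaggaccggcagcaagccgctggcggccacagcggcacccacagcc
Tnnt2: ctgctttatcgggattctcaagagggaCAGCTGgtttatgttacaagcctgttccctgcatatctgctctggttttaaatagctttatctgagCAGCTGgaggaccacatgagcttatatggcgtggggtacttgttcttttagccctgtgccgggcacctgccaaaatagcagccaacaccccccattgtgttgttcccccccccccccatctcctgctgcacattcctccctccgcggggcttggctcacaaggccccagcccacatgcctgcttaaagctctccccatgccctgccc
Myl1: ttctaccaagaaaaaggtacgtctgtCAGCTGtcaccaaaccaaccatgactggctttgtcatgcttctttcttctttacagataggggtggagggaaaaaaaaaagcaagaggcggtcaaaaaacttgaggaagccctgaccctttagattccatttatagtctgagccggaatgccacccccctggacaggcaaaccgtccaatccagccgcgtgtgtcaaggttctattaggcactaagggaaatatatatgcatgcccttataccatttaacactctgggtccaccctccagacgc
Mylpf: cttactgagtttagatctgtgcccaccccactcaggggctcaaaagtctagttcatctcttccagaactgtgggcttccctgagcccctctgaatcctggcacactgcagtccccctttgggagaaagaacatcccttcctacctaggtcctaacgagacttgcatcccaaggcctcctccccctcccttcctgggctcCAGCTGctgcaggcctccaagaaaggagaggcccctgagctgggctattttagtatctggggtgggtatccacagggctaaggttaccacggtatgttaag

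The windows shown of Chrna1 and Tnnt2 hold the E-box in 2 places, and those of Myl1 and Mylpf in 1. The other Tnnt2 window, at chr1:135836739-135837038, does not hold it. TGGGAA or, on the other strand, TTCCCA is the core that the Notch effector RBPJ can bind. For the genes highest in progenitors this core was in 5 of 9 windows (55.6%), those of 5 of the 8 matched genes. For the lowest genes it was in 6 of 13 windows (46.2%), those of 5 of the 9 genes, against 25.6% of all windows. The windows of Notch3 and Egfr did not hold it. A match is only a run of letters, and the libraries hold no measure of binding.

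Genes of cell cycle exit differed between the states too. Of 13 measured inhibitors and D cyclins 5 were lower in progenitors (Cdkn1a, Gadd45g, Rb1, Btg1 and Btg2) and Ccnd2 was higher. Gadd45g, a growth arrest gene, was at 32.5 CPM in progenitors and 319 CPM in Myog-positive cells of mutant skin, and at 23.4 and 270 CPM in those of control skin. After thinning to 3000 UMIs, 81.6% (75.5 to 86.7) of mutant and 78.5% (73.9 to 82.6) of control progenitors had UMIs of at least 2 of 8 genes of the G2 and M phases, among them Mki67, Top2a and Cdk1. The shares were 52.4% and 55.4% in Myog-positive cells of mutant and control skin. In dermis-marked cells they were 54.7% and 44.3%, and in keratinocyte-marked cells 64.96% and 60.6%. The 8 genes were taken after a longer list of 52 had proved uninformative: nearly every cell had UMIs of 2 of those, 100% of mutant and 99.4% of control progenitors. The difference between mutant and control progenitors in the shorter measure, 3.08 points, had an interval of -4.25 to 9.94. Only 2 mutant and 8 control progenitors had no UMI of the 8 genes at full depth. Phase transcripts show only which RNAs were present in a cell.

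Ordering the muscle cells by the rule genes alone gave 4 steps from Pax7 to Myog. The first held Pax7 without Myod1 or Myog (114 mutant and 161 control cells), the second Pax7 with Myod1 (87 and 202), the third Pax7 with Myog (66 and 88) and the fourth Myog without Pax7 (320 and 401). At full depth, genes that took no part in this ordering were graded along it. Chodl was at 89.0, 21.0, 9.96 and 1.04 CPM over the 4 steps in mutant skin and at 53.6, 31.3, 12.6 and 2.34 CPM in control skin. Notch3 followed the same course at 70.1, 45.2, 29.9 and 9.71 CPM in mutant skin, and at 46.8, 41.9, 28.4 and 8.17 CPM in control skin. Hes6 ran the other way, at 81.8, 127, 155 and 364 CPM in mutant skin and 79.1, 105, 176 and 293 CPM in control skin. Fusion came late: Mymk had at most 2 UMIs at either of the first 2 steps, and stood at 25.6 and 199 CPM in the third and the fourth steps of mutant skin and at 20.8 and 182 CPM in those of control skin. Deeper cells show more of the rule genes, with medians of 9051.5 and 10260 UMIs at the first and second steps in mutant skin and 13362 and 17224 in control skin.

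With every cell thinned to 3000 UMIs before it was placed, the grading was no longer seen in every gene. The middle steps were then thin, with 15 and 13 cells in mutant skin and 34 and 12 in control skin, and in the first of these 1 UMI is worth 22.2 CPM. Actc1 was still graded, at 853, 1111, 3538.5 and 5614.9 CPM over the 4 steps in mutant skin and at 913, 1656.9, 2750 and 5160 CPM in control skin. Notch3 was at 107, 0, 51.3 and 3.38 CPM in mutant skin and at 38.8, 58.8, 27.8 and 6.12 CPM in control skin. Hes6 was at 120, 222, 103 and 370.5 CPM in mutant skin and at 84.1, 68.6, 222 and 328 CPM in control skin. The outer steps, with 75 to 327 cells, kept the order seen at full depth for Chodl, Notch3, Hes6 and Actc1, and no order is read from the middle steps of Chodl, Notch3 and Hes6 at this depth.

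**Figure D2:**
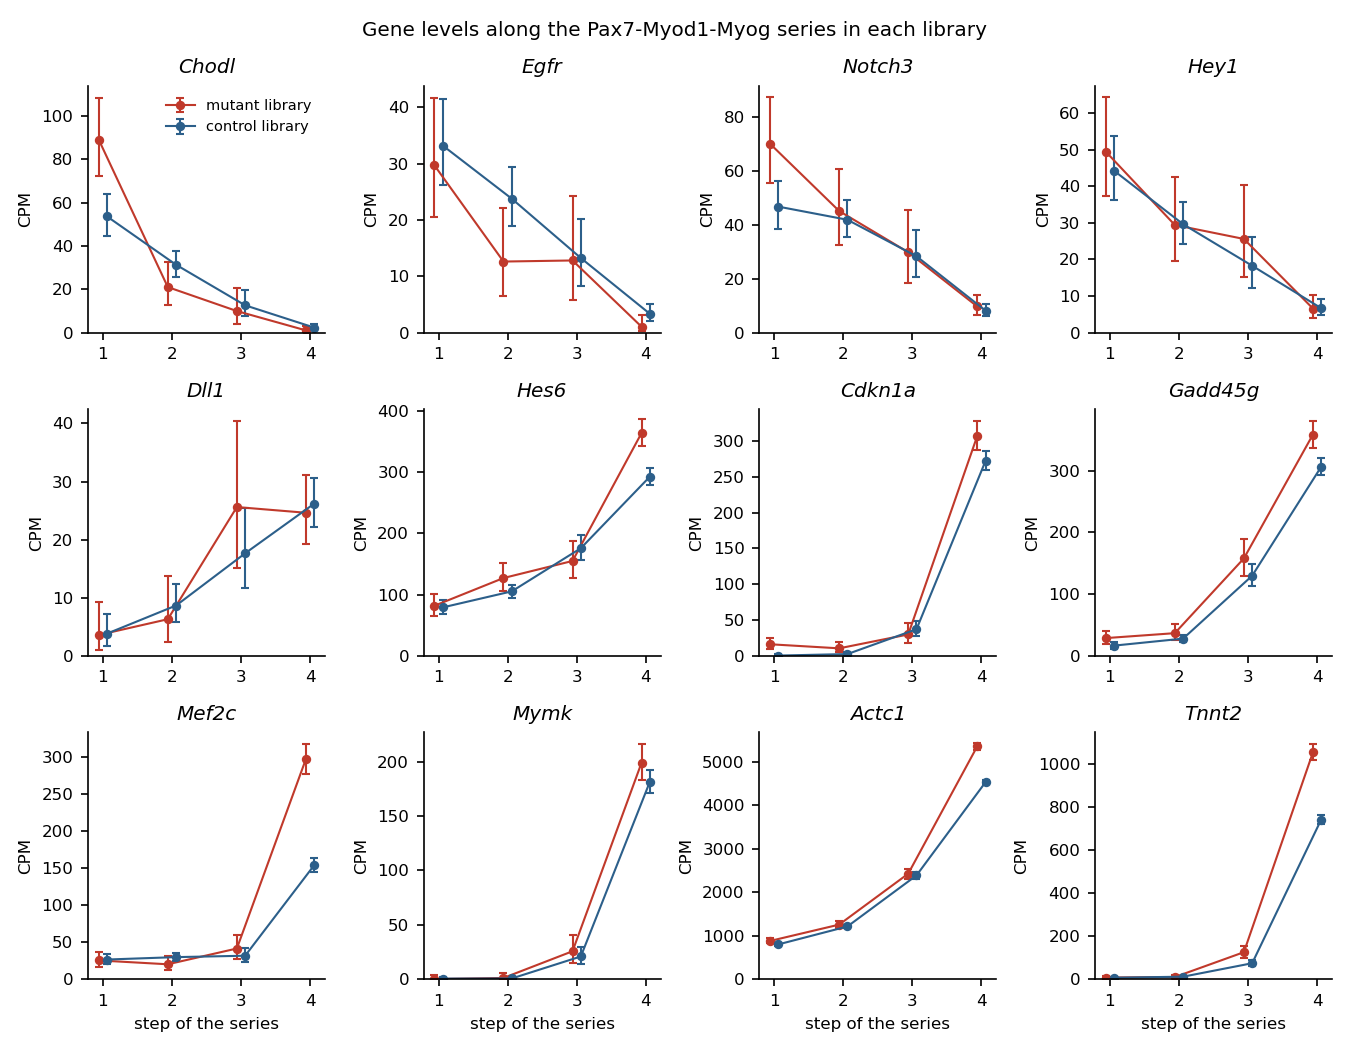
Levels of 12 genes in CPM at full depth (y axes, linear) over the 4 steps from Pax7 without Myod1 or Myog to Myog without Pax7 (x axes), in mutant (red) and control (blue) libraries, with exact Poisson 95% intervals. Chodl, Egfr, Notch3 and Hey1 are highest at the first step and the other 8 genes at the third or the fourth, and the libraries follow the same course.

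Between the libraries, progenitors were alike in most genes. Of 5371 genes at 20 CPM or more in 1 library, 58 (1.08%) were at least 1.5-fold higher in mutant progenitors and 68 (1.27%) at least 1.5-fold lower, with a median log2 ratio of 0.01 over all. Of the genes of the rule, given as a description, Myod1 was at 80.9 CPM in mutant and 81.1 CPM in control progenitors, Des at 214 and 212, and Msc at 384 and 413. Pax7 and Myf5 were higher in mutant cells when cells of all depths were summed. The rule asks for a Pax7 UMI, and 1 UMI is a higher CPM in a shallower cell, so these Pax7 levels are not comparable between the libraries. Pax7 was at 181 CPM in mutant and 142 CPM in control cells of the first step, and at 143 and 108 CPM in the second. Myf5 was at 81.8 and 64.7 CPM in the first step and at 72.5 and 55.1 CPM in the second. In progenitors of 8000 to 16000 UMIs, Pax7 was at 159 CPM (139 to 181) in mutant and 148 CPM (132 to 166) in control cells. It was at 220 and 227 CPM in those under 8000 UMIs and at 110 and 102 CPM in those over 16000. No Pax7 difference was thus seen within a depth range. Myf5 was at 79.0 and 53.4 CPM in the middle range, and at 54.9 and 62.1 CPM in cells over 16000 UMIs. Of 18 measured myogenic transcription factors 15 were within 1.5-fold, as were all 10 Notch genes, all 39 S phase and 47 G2 and M genes, and 9 of 11 contractile genes. Past 1.5-fold were Tcf15 (higher) and Snai2 (lower) among the transcription factors, and Ankrd1 (higher) and Mybpc1 (lower) of the contractile genes. Of 21 surface and adhesion genes Erbb3 was higher and Cdh2 and Itga4 lower, and of 25 matrix genes Col4a2 and Lama4 were higher and Col1a1 lower. Trps1, Barx2 and Tagln were among the 8 genes whose ratio was most unlike that of the other cells: Barx2, a homeobox gene, was at 120 CPM in mutant and 144 CPM in control progenitors, against 36.04 and 11.02 CPM in the other cells. Some of the called genes differed outside progenitors as well: 18 of the 58 and 26 of the 68 passed 1.5-fold the same way in Myog-positive cells, and 14 and 20 did so in all other kept cells. In neither of these groups did 36 of the 58 and 33 of the 68 pass. The matching shares over all genes are not given here, so nothing is read from these counts.

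The widest differences were also seen outside progenitors. AA465934, a noncoding transcript at chr11:83291699-83294632 (plus strand), was at 80.0 CPM in mutant and 1.18 CPM in control progenitors and at 73.5 and 1.74 CPM in all other kept cells. Cwc22, a splicing factor, was 3.93-fold higher (3.16 to 4.89), at 97.4 CPM in mutant and 24.8 CPM in control progenitors, against 89.5 and 20.0 CPM in the other cells. All 5 measured hemoglobin genes were higher too, Hbb-bs at 515 CPM in mutant and 65.4 CPM in control progenitors and at 520 and 70.5 CPM in the other cells. Hemoglobin belongs to red blood cells, and after thinning 77.1% of mutant and 17.4% of control progenitors had an Hbb-bs UMI, beside 77.05% and 16.04% of keratinocyte-marked cells. These shares lie at the level of a cell type that does not make hemoglobin.

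Of the other genes highest in mutant progenitors, Dbx1, a homeobox gene, was 2.57-fold higher (1.93 to 3.43), at 45.5 CPM in mutant and 17.7 CPM in control progenitors, and under 4 CPM in every other group of cells. Its level was lowest in the deepest cells. Dbx1 was at 50.1 CPM in mutant and 30.4 CPM in control progenitors of 8000 to 16000 UMIs, and at 21.95 and 10.5 CPM in those over 16000. Tcf15, a bHLH gene of the early somite, was 2.997-fold higher (1.96 to 4.59), at 23.3 and 7.76 CPM. Within the steps, the ratio of Dbx1 was 1.92 (1.33 to 2.77) at the first and 3.28 (2.01 to 5.33) at the second. That of Tcf15 was 3.01 (1.77 to 5.17) at the first step. At the second it was 2.07, with an interval of 0.895 to 4.53 that includes 1. Moxd1 was at 20.4 CPM in mutant and 5.40 CPM in control progenitors, at 8.64 and 2.77 CPM in Myog-positive cells and, in the opposite order, at 5.62 and 9.07 CPM in the other cells. Erbb3, a neuregulin receptor gene that Schwann cells share, was 2.29-fold higher (1.70 to 3.09), at 40.2 and 17.5 CPM, and it made up most of the Schwann and neural crest marker sum of 45.5 CPM in mutant and 22.4 CPM in control progenitors. Of 7 measured stress and dissociation genes 3 were higher and 4 were within 1.5-fold. Junb was at 33.9 CPM in mutant and 12.6 CPM in control progenitors, Fos at 61.5 and 30.03, and Ier2 at 85.3 and 49.8, while Jun was at 93.0 CPM in mutant and 125 CPM in control progenitors and Egr1 at 79.9 and 63.8. Such genes respond to enzymatic dissociation, and its part in these values was not tested.

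Fst, which encodes follistatin, a secreted antagonist of activins and myostatin, was the gene lowest in mutant progenitors (chr13:114452290-114458951, minus strand). It was at 10.2 CPM in mutant and 45.0 CPM in control progenitors, a 4.43-fold difference (2.84 to 7.27), and 6.97% of mutant and 28.7% of control progenitors had a UMI of it at their own depths. The difference held at each step from Pax7 to Myog, with mutant levels of 4.50, 16.8, 35.6 and 39.5 CPM and control levels of 23.4, 59.2, 125 and 253 CPM. In all other kept cells the order was turned, at 35.5 CPM in mutant and 22.4 CPM in control skin. Igf1, a muscle growth factor, was also lower, at 47.0 CPM in mutant and 94.5 CPM in control progenitors, against 176 and 126 CPM in the other cells.

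Tubb3, Gap43 and Nefl, which are best known from neurons, were lower in mutant progenitors. Tubb3, a neuronal beta-tubulin, was at 13.1 CPM in mutant and 52.6 CPM in control progenitors, a 4.02-fold difference (2.71 to 6.20), and at 37.1 and 107 CPM in Myog-positive cells. Gap43, a growth cone protein, was at 24.7 and 90.3 CPM in mutant and control progenitors, and Nefl, the light neurofilament, at 28.6 and 64.9. The 5 neuron markers together summed to 17.0 CPM in mutant and 56.9 CPM in control progenitors, most of it Tubb3, the only one of them to reach 20 CPM. Elavl4 was at 2.91 and 3.04 CPM in mutant and control progenitors and Stmn2 at 0.969 and 1.01 CPM. After thinning, Tubb3 was found in 3.98% of mutant and 11.8% of control progenitors, beside 0.273% and 0.164% of keratinocyte-marked and 3.34% and 0.985% of dermis-marked cells. The share of mutant progenitors, with an interval of 1.73 to 7.69, was thus at the level of the mutant dermis-marked cells. Lower by 1.5-fold or more were also Cdh6, a cadherin, at 4.84 and 21.1 CPM in mutant and control progenitors, Lef1, a Wnt-pathway transcription factor, at 21.3 and 49.1, and Nkd1, a Wnt inhibitor and target, at 25.2 and 53.0. Wnt targets and inhibitors counted 4 lower (Twist1, Lef1, Nkd1 and Wnt5a) and 1 higher (Tcf7l1) of 13 measured, at a median log2 ratio of -0.01. Of 24 IGF and imprinted growth genes Igf1 alone passed 1.5-fold.

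**Figure D3:**
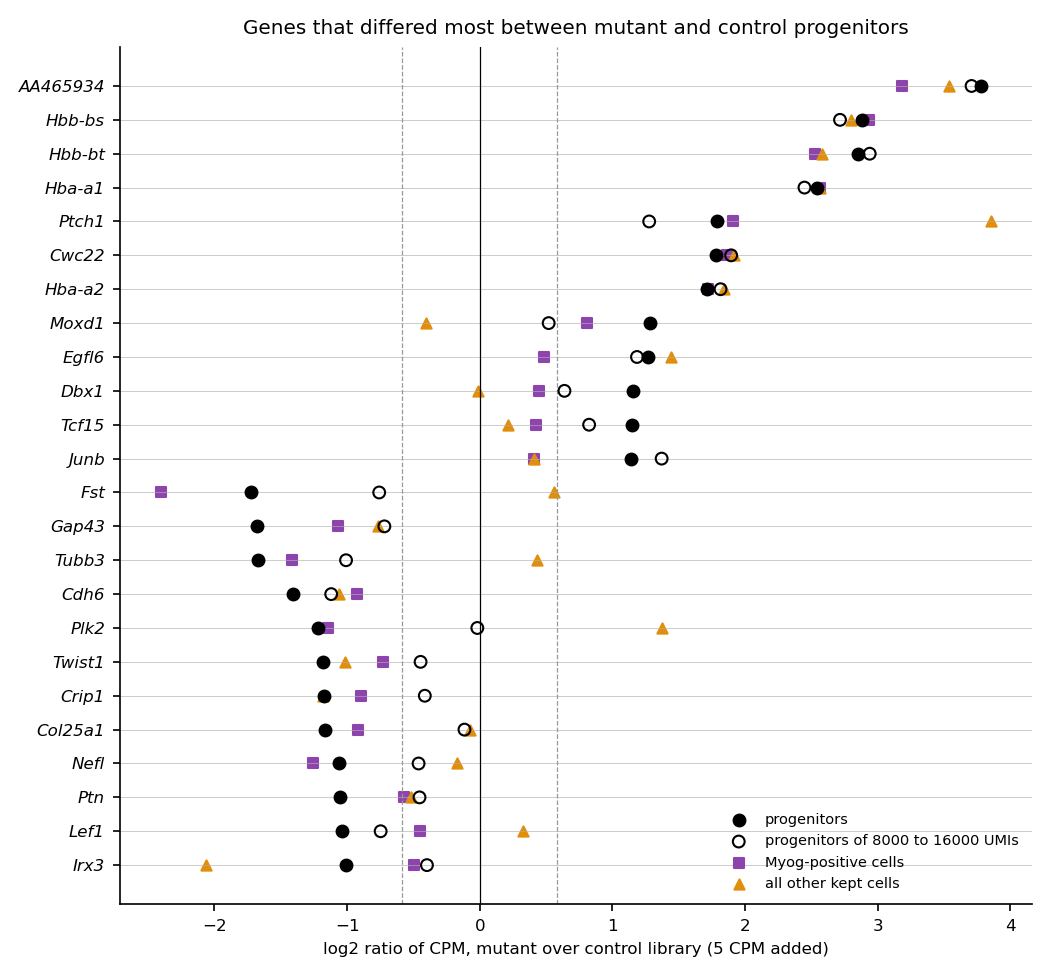
Log2 ratios, mutant over control library, of the 12 genes highest (upper rows) and 12 lowest (lower rows) in mutant progenitors, with 5 CPM added. Filled circles are all progenitors, open circles progenitors of 8000 to 16000 UMIs, squares Myog-positive cells and triangles all other kept cells, and dashed lines mark 1.5-fold. AA465934, Cwc22 and the hemoglobin genes are alike in all, while Fst, Tubb3 and Plk2 lie below 0 in both muscle groups and above 0 in the other cells.

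Cell depth moved with several of these differences. Progenitors of over 16000 UMIs numbered 15 in mutant skin and 173 in control skin, and those of 8000 to 16000 UMIs 128 and 164. In that middle range, chosen after the data were seen, 21 of the 68 lower genes and 32 of the 58 higher genes were still past 1.5-fold. Those genes were picked as past that limit in all progenitors, and the range holds fewer cells. A loss of some of them can come from counting error alone, so nothing about depth is read from these counts. Tubb3 was at 15.5 CPM in mutant and 36.2 CPM in control progenitors of the range, Fst at 11.3 and 22.5, and Gap43 at 27.5 and 48.5. Plk2, a polo-like kinase, lost its difference there, at 35.3 and 35.8 CPM, although it was at 27.6 CPM in all mutant and 71.0 CPM in all control progenitors. Its control level in cells over 16000 UMIs was 93.0 CPM. Another 6 of the 12 lowest genes came within 1.5-fold in the range, namely Twist1, Crip1, Col25a1, Nefl, Ptn and Irx3, and so did Moxd1 of the highest. The mutant and control cells of the range still differed in median depth, 10692 UMIs in mutant and 12501 in control progenitors.

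**Figure D4:**
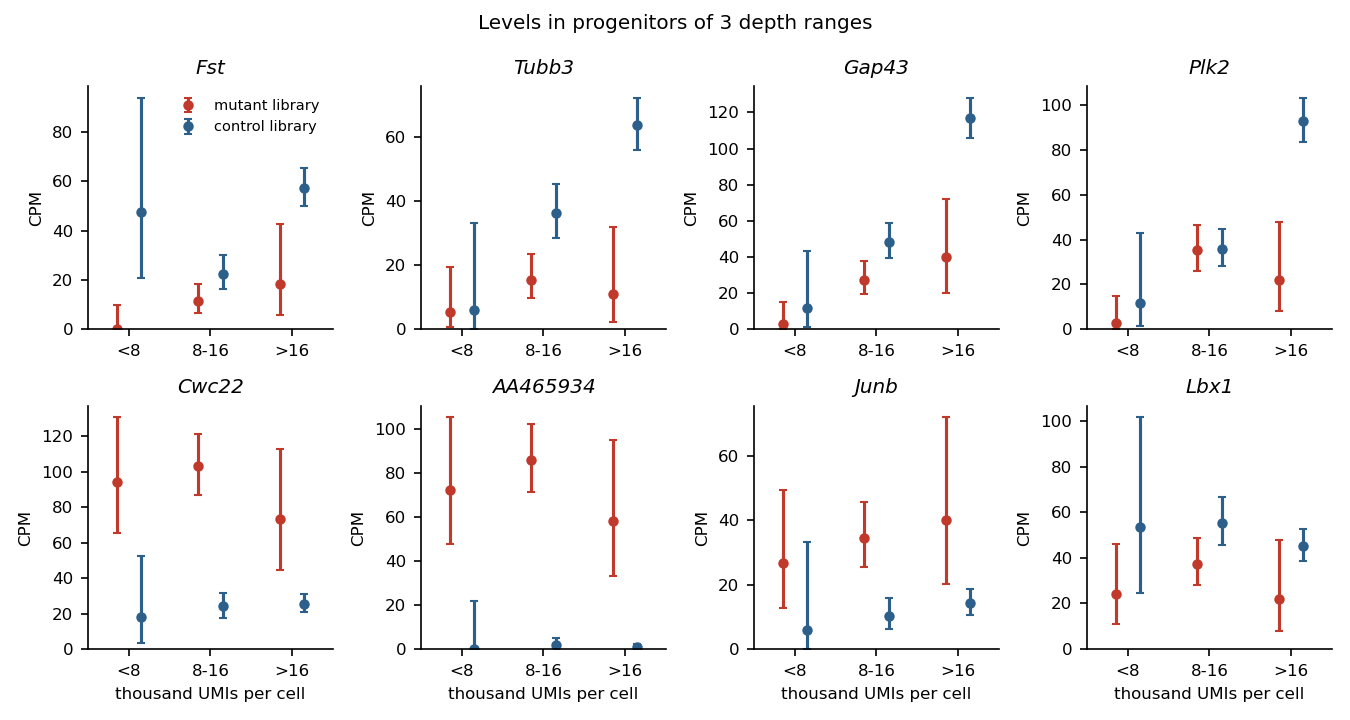
Levels in CPM (y axes) of 8 genes in progenitors of under 8000, 8000 to 16000 and over 16000 UMIs (x axes), mutant in red and control in blue, with exact Poisson 95% intervals. Fst, Tubb3, Gap43 and Plk2 have their highest control level in the deepest cells, whereas Cwc22 and AA465934 are higher in mutant cells in every range.

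Doublet calls moved with some members of the set, and dermal RNA with others. Without the progenitors that Scrublet called doublets, Twist1, a mesenchymal bHLH factor, had a log2 ratio of -0.80 and not -1.18, Crip1 -0.85 and not -1.17, and Ptn, a secreted growth factor, -0.61 and not -1.06. Each of these genes was still more than 1.5-fold lower. Whether dermal RNA took part in their shifts was not tested. Fst and Tubb3 were at -2.09 and -1.74 without the doublets. Egfl6 was 3.30-fold higher in mutant progenitors, but 27.8% of its mutant UMIs came from 1 cell, and without the 25% of progenitors richest in dermal RNA its log2 ratio was -0.45. It was at 332 CPM in mutant and 84.9 CPM in control dermis-marked cells. Col1a1 itself was lower in mutant progenitors, at 98.9 CPM against 154 CPM in control progenitors, and Crabp1, a dermal retinoic acid-binding protein gene, was at 92.6 and 152 CPM.

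Core Hedgehog targets are the readout of the mutation. Of the 4 core targets Ptch1 (chr13:63508328-63573598, minus strand) alone reached 20 CPM, at 31.0 CPM (64 UMIs) in mutant and 5.40 CPM (32 UMIs) in control progenitors, a 5.75-fold ratio (3.70 to 9.08), and 1 cell held 15.6% of the mutant UMIs. Gli1 had 8 and 4 UMIs in mutant and control progenitors and Hhip 14 and 2. Transcripts of the eYFP reporter were seen in 9 mutant progenitors (12 UMIs) and in none of the control progenitors, where 3 counts, taken as the limit that a count of 0 allows, are 0.506 CPM. Myog-positive cells held Ptch1 at 19.2 CPM in mutant and 1.45 CPM in control skin, and keratinocyte-marked cells at 20.9 and 6.34 CPM. The level in mutant progenitors, with an interval of 23.9 to 39.6, was above the mutant keratinocyte-marked level and far below the 261 CPM of mutant dermis-marked cells. The share of cells with a Ptch1 UMI after thinning, 3.98% (1.73 to 7.69) of mutant progenitors and 0.275% (0.00697 to 1.53) of control progenitors, lay beside 3.62% and 2.13% of mutant and control keratinocyte-marked cells and 43.2% of mutant dermis-marked cells. The mutant progenitors' share was thus at the level of the mutant keratinocyte-marked cells.

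The Ptch1 UMIs lay mostly in progenitors that also held dermal collagen RNA. The 83 mutant progenitors with a Col1a1 UMI held 55 of the 64 Ptch1 UMIs, at 60.4 CPM, against 6.03 CPM in the 223 such control progenitors. In progenitors without a Col1a1 UMI, 118 mutant and 140 control cells, Ptch1 was at 7.80 and 4.25 CPM, a ratio of 1.83 whose interval of 0.645 to 5.21 includes 1. The 9 mutant progenitors with an eYFP UMI held 16 of the Ptch1 UMIs, and the 192 without one held Ptch1 at 24.7 CPM. Per Col1a1 UMI, mutant cells held 0.314 Ptch1 UMIs in progenitors, 0.361 in Myog-positive, 0.348 in keratinocyte-marked and 0.259 in dermis-marked cells. Control cells held 0.0349 in progenitors, 0.0173 in Myog-positive, 0.0583 in keratinocyte-marked and 0.00449 in dermis-marked cells. For eYFP the mutant values were 0.0588 in progenitors (12 UMIs) and 0.0285 in dermis-marked cells. Gli1 did not follow Col1a1, with 7 of its 8 mutant UMIs in cells without Col1a1. Control cells without Col1a1 had 0 Gli1 UMIs, and the ratio had a lower limit of 2.64. In the same cells eYFP had 4 mutant and 0 control UMIs (lower limit 1.21), and Hhip 3 and 0 (lower limit 0.758). Such counts are too few for a level, but those of Gli1 and eYFP show a mutant excess without Col1a1 beyond counting error. Without the doublets the log2 ratio of Ptch1 was 0.98, and without the 25% richest in dermal RNA it was 0.33, against 1.79 in all progenitors. Of 5 measured Hedgehog transducers all were within 1.5-fold: Smo was at 52.8 CPM in mutant and 44.2 CPM in control progenitors, the co-receptor Gas1 at 229 and 260, and the co-receptor Cdon at 65.9 and 55.7.

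**Figure D5:**
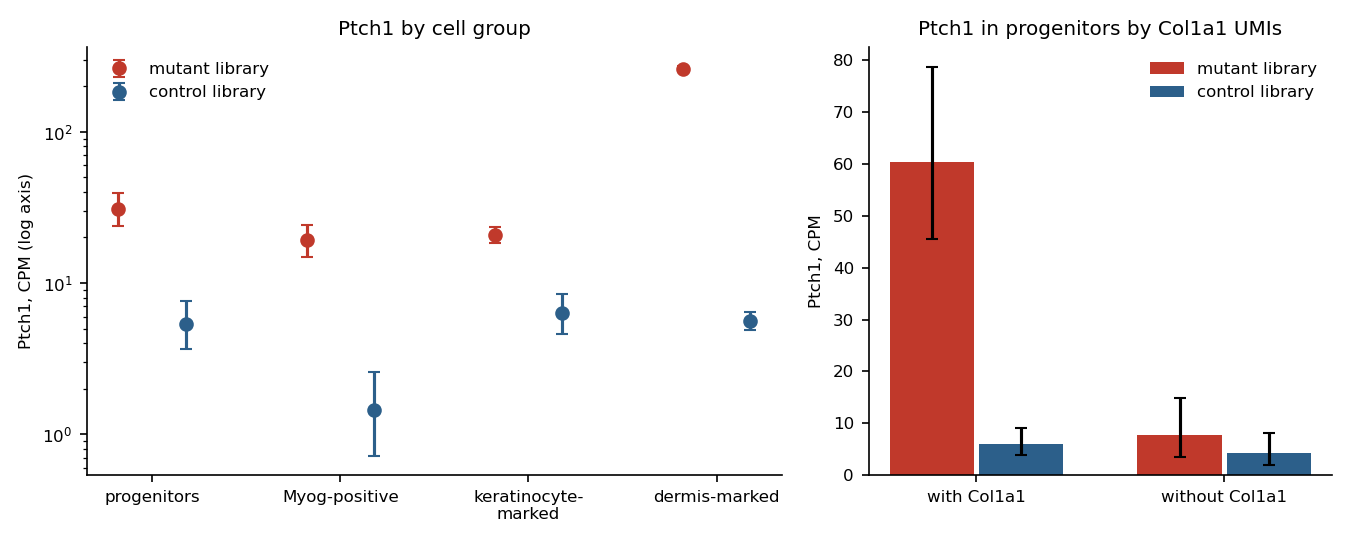
Ptch1 in CPM with exact Poisson 95% intervals, mutant in red and control in blue. The left panel (log axis) shows 4 groups of cells, with progenitors at 31.0 CPM in mutant and 5.40 CPM in control skin and mutant dermis-marked cells at 261 CPM. The right panel (linear axis) parts progenitors by Col1a1, and the mutant excess is in those with a Col1a1 UMI, 60.4 CPM against 6.03 CPM.

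Tcf15, Fst and Tubb3 did not go with dermal RNA in this way. In progenitors without a Col1a1 UMI, Tcf15 was at 24.3 CPM in mutant and 4.25 CPM in control cells, Fst at 7.80 and 50.1, and Tubb3 at 13 and 51.5. The ratio of mutant to control was 5.70 (2.62 to 13.7) for Tcf15, 0.156 (0.0693 to 0.307) for Fst and 0.252 (0.137 to 0.435) for Tubb3.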

How the data were processed

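UMI counts per gene and barcode were deposited by the authors as 1 matrix per library with 32286 features. Per the submitters' processing notes they come from Cell Ranger 5.0.1 and mm10, and per the file headers an eYFP feature was added. The mutant matrix lists 11909 barcodes with 73809828 UMIs and the control matrix 13566 barcodes with 109629368. The counts were read as deposited. Progenitors, comparison groups and gene lists were chosen with earlier results of these data known. UMIs were summed over the cells of a group and scaled to 1000000 (CPM). Ratios of CPM carry exact conditional binomial intervals, CPM exact Poisson intervals and shares Clopper-Pearson intervals. Genes at 20 CPM or more were compared on log2 values with 5 CPM added, calling 1.5-fold between libraries and 2-fold in both libraries between muscle states. Fold changes in the text are of CPM with nothing added. Named genes were the 12 highest and 12 lowest of each comparison, up to 4 list members per direction and the 8 genes whose ratio differed most from that in other cells. Other genes with values (such as Met and Lbx1) were named after their values were seen. Dermis-marked cells had Pdgfra, 10 or more UMIs of Col1a1, Col1a2 and Col3a1, none of Pax7, Myog or Myod1, and passed the exclusions of the rule. Keratinocyte-marked cells had over 5 UMIs of Krt5, Krt14 and Krt15 and none of Pax7, Myog, Cdh5, Ptprc or Sox10. Scrublet was run in scanpy 1.11.5 with an expected rate of 8%. Calculations used Python 3.11.15, numpy 2.4.6, scipy 1.17.1 and pandas 2.3.3, and the code was tested on simulated data. The 33 gene lists held 553 genes, and 1, with a duplicated symbol, was not matched. Some measured genes are not reported here.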

Additional observations from a re-analysis of the deposited data

Results flagged for a closer look

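Plk2 differed between cell types in the direction of its change. Its log2 ratio, mutant over control, was -1.22 in progenitors, where it was at 27.6 CPM in the mutant and 71.0 CPM in the control library, and 1.38 in all other kept cells, where it was at 59.1 and 19.7 CPM. The difference between the ratios was not tested, since each group had 1 library. In progenitors of 8000 to 16000 UMIs the ratio was -0.02.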

How the results depend on the processing

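In the contrast of progenitors with Myog-positive cells, all 672 recomputed ratios of its 24 named genes, in both libraries, kept direction and were past 2-fold. Those genes were picked as its most extreme in the same data, so the count is a description and no independent check. Of 351 recomputed ratios of mutant over control for 27 named genes 344 kept direction and 294 were also past 1.5-fold. The counts of called genes depended on depth and limits (higher and lower in mutant progenitors, then higher and lower than in Myog-positive cells, against 58, 68, 59 and 161). With at least 2 Pax7 UMIs they were 149 and 139 in mutant progenitors. With cells thinned to 3000 UMIs and the rule applied again they were 802 and 682, with 180 genes higher than in Myog-positive cells and a control Notch median of 0.97, where 90 mutant and 137 control cells are left. A floor of 5 CPM gave 136, 183 and, lower than in Myog-positive cells, 242, and one of 50 CPM 18, 16, 22 and 84. Adding 10 CPM gave 41 lower in mutant progenitors and 35 higher than in Myog-positive cells, and TMM scaling 30 higher than in Myog-positive cells. Genes higher than in Myog-positive cells numbered 108 without the 25% richest in dermal RNA, 98 against Myog-positive cells without Pax7 and 101 against those with at least 2 Myog UMIs. Chosen after the data were seen, 8000 to 16000 UMIs gave 159 genes higher in mutant progenitors and 105 higher than in Myog-positive cells, and progenitors without Col1a1 138 and 134 in mutant progenitors.

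The core Hedgehog median, which is Ptch1 alone, was 1.79 in all progenitors, 0.98 without doublets, 0.33 without the 25% richest in dermal RNA and 0.47 without Col1a1 cells. Egfl6 turned to -0.45 without the 25% richest in dermal RNA and -0.50 without Col1a1 cells. The share of kept cells differed by -0.648 points before thinning, and the G2 and M share by 3.08 points with 8 genes. A fit on cells without G2 and M UMIs was not run, since 2 mutant and 8 control progenitors were left, under the minimum of 50. Other causes were not tested. No paired analysis was possible because each group has 1 library. UMIs within a cell and cells within an embryo are not independent, so intervals understate the spread between animals, and differences between libraries cannot be told apart from differences between embryo pools, preparation or depth.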

Other observations

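Cdkn1a, which encodes the cell cycle inhibitor p21, was under 20 CPM in progenitors and so took no part in the comparison of the libraries, and it was looked at after its values were seen. It had 28 UMIs (13.6 CPM) in mutant and 10 UMIs (1.69 CPM) in control progenitors, a ratio of 8.04 (3.79 to 18.6). The mutant UMIs came from 11 cells, 1 of which held 28.6% of them. In progenitors of 8000 to 16000 UMIs there were 21 mutant UMIs and none in the control cells. Myog-positive cells held it at 253 CPM in the mutant and 223 CPM in the control library, and dermis-marked cells at 130 and 7.80 CPM. Whether dermal RNA in the droplets took part in the progenitor value was not tested.

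Lbx1, a homeobox gene of migrating and hypaxial muscle precursors, was found in 26.9% of mutant and 52.6% of control progenitors at their own depths and in 7.46% and 12.4% after thinning, and its level was 33.0 CPM in mutant and 48.9 CPM in control progenitors. That is a ratio of 0.674 (0.509 to 0.880), within the 1.5-fold limit. Of 8 measured genes of axial position 7 were within 1.5-fold and Hoxc5 was lower, at 19.4 CPM in mutant and 32.4 CPM in control progenitors.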
